A study of Mus musculus with 6 samples.

Results

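Tarm1, the TREM receptors, their adaptors and 4 inhibitory receptors of the same immunoglobulin type were examined in mouse bone marrow-derived macrophages, cells grown from marrow into macrophages. The 10 members were taken by gene symbol from a table of 16266 genes. They are the activating receptors Tarm1, Trem1, Trem2 and Trem3, the adaptors Tyrobp and Hcst, and the inhibitory receptors Pirb, Pilra, Sirpa and Cd300lf. The 10 were chosen by their KO and WT values in this series, and so their differences are given below as a description. Calls on them from the fit over all genes are printed only as counts and as limits, and support nothing. Of 6 libraries, 3 came from Capns1 knockout macrophages (KO) and 3 from wild-type macrophages (WT), all given lipopolysaccharide (LPS, a bacterial cell wall component) for 24 h. Capns1 encodes the small subunit shared by the classical calpain proteases. The labels' genotype field reads CAPNS1-KO, CAPNS2-KO and CAPNS3-KO for the KO samples and WT for the others, while the series' design text speaks of capns1 alone. The series title describes a myeloid-specific deletion. The sources used here give neither the promoter that drives it, nor the LPS dose, nor the age of the mice, nor whether replicates were separate animals. No cells without LPS were analysed here.

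Receptors of this type come in pairs on myeloid cells. The activating ones have a short tail and signal through a partner in the membrane. Tyrobp (DAP12) and Fcer1g (the Fc receptor gamma chain) carry an activation motif, the ITAM, that recruits the kinase Syk, and Hcst (DAP10) instead recruits phosphoinositide 3-kinase. The inhibitory ones carry their own motif, the ITIM, in a long tail and recruit the phosphatases Ptpn6 and Ptpn11, which oppose Syk signalling. In macrophages, Trem1 is known for amplifying inflammatory responses and Trem2 for sensing lipids, binding apolipoprotein E and sustaining phagocytes.

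Libraries held 32631163 to 40913819 counts. Capns1 had 9.51, 9.94 and 9.13 CPM (the count scaled to a common library total) in KO libraries, against 492, 478 and 521 CPM in WT libraries, so the loss was seen in each KO library whatever number its genotype field gives. KO replicate 2 stood at -25.5 on the second principal component, apart from the other KO libraries at 12.6 and 10.4, and WT replicate 3 stood at 23.2, apart from the other WT libraries at -8.2 and -12.4. Macrophage markers were abundant, with summed levels of 34444 to 39490 CPM in KO libraries and 36131 to 43458 CPM in WT libraries over 10 genes. Among these Cd14 alone was called (lower in KO). Lyz2 made up most of each sum, at 23444 to 27659 CPM in KO libraries and 23796 to 31886 CPM in WT libraries. In the whole table, 1790 of 12219 tested genes were called, meaning an adjusted p under 0.05 in edgeR's quasi-likelihood test. That is 14.6% of tested genes, of which 8.44% were called as higher in KO and 6.21% as lower. For 33.6% of tested genes all KO libraries lay on one side of all WT libraries.

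All 10 members passed the filter on low counts. In this fit 3 were called as higher in KO (Tarm1, Pirb and Pilra), 1 as lower (Trem2), and 6 were not called, against the 14.6% of all genes called. For 6 members the KO and WT libraries did not overlap, 5 of them higher in KO and 1 lower. Of all tested genes, 18.2% did not overlap with KO higher and 15.5% did not overlap with KO lower. The median log2 fold change of the members was 0.27, against -0.01 over all tested genes. Because the contrast was in view when the members were picked, nothing is read from these shares. In bulk RNA, fewer cells of a type and less RNA per cell cannot be told apart.

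**Figure D1:**
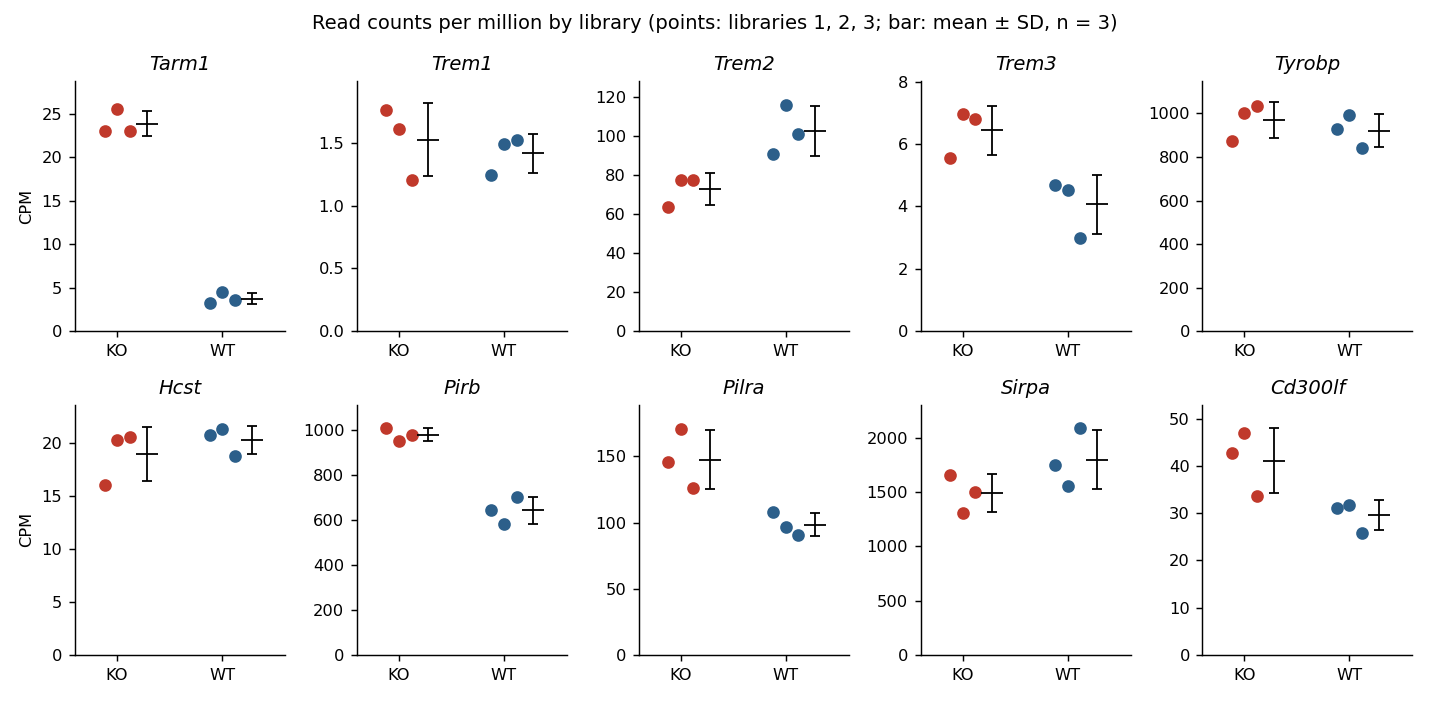
CPM (vertical axes from 0) of the 10 members in each library, KO left and WT right, with the mean and SD of 3 libraries as bars. Tarm1 stands at 23.0 to 25.5 CPM in KO libraries and 3.23 to 4.47 CPM in WT libraries, and Trem2 is the member whose KO libraries all lie below the WT libraries.

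Tarm1 had the largest difference among the members. It encodes an activating receptor of myeloid cells that pairs with Fcer1g, and collagen has been described as its ligand. Tarm1 had 23.0, 25.5 and 23.0 CPM in KO libraries, against 3.23, 4.47 and 3.54 CPM in WT libraries. The lowest KO library thus lay well above the highest WT library. The KO over WT ratio was 6.27 in edgeR, a log2 fold change of 2.65 ± 0.15 (standard error, SE; n = 3 each). These values rest on 752 to 949 counts per KO library and 112 to 177 per WT library. Per length, Tarm1 averaged 15.2 ± 0.908 FPKM in KO and 2.39 ± 0.41 FPKM in WT (SD, n = 3; FPKM, the same scale divided by gene length). Its log2 fold change was 2.26 to 2.80 over 16 alternative settings of the fit. The lowest value came from log2(FPKM + 1), a scale that understates the change of low genes.

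The Trem genes did not share a direction. Trem2 had 63.4, 77.6 and 77.3 CPM in KO libraries, against 90.6, 116 and 101 CPM in WT libraries. Every KO library lay below every WT library, and the log2 fold change was -0.51 ± 0.12 SE, a KO over WT ratio of 0.701. The call was lost without KO replicate 1, KO replicate 3 or WT replicate 2, where the log2 fold change was -0.40, -0.54 and -0.41 in turn. Trem3, a Tyrobp-coupled receptor of mouse myeloid cells, had 5.54, 6.96 and 6.80 CPM in KO libraries, against 4.67, 4.54 and 2.98 CPM in WT libraries. The groups did not overlap, but the lowest KO and highest WT library lay close together, and the log2 fold change was 0.65 ± 0.21 SE, with 0.38 to 0.76 over the alternatives. Trem1 was the lowest member, with 62, 60 and 39 counts in KO libraries and 43, 59 and 62 counts in WT libraries. That is 1.76, 1.61 and 1.20 CPM in KO, against 1.24, 1.49 and 1.52 CPM in WT, with overlapping groups. Its log2 fold change was 0.085 ± 0.29 SE, the widest SE of the members.

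Both adaptors had nearly the same level in the 2 genotypes. Tyrobp had 875, 1000 and 1033 CPM in KO libraries, against 930, 991 and 839 CPM in WT libraries, with a log2 fold change of 0.055 ± 0.10 SE. Hcst had 16, 20.3 and 20.6 CPM in KO libraries, against 20.7, 21.3 and 18.8 CPM in WT libraries, with a log2 fold change of -0.12 ± 0.13 SE. The groups overlapped for both. Within each library, the FPKM of Tyrobp was 42.2, 37.9 and 38.6 times that of Hcst in KO, and 34.5, 35.8 and 34.4 times in WT. Tyrobp over the summed FPKM of the 3 Trem genes, which signal through it, was 25.1, 23.4 and 24.3 in KO libraries and 19.3, 16.3 and 16.1 in WT libraries. The Trem sum is nearly all Trem2, so this ratio repeats the lower Trem2 in KO.

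Among the inhibitory members, Pirb, Pilra and Cd300lf were higher in every KO library than in any WT library, and Sirpa overlapped. Pirb, which binds MHC class I, had 1010, 953 and 978 CPM in KO libraries, against 644, 583 and 704 CPM in WT libraries. The groups were well apart, with a log2 fold change of 0.58 ± 0.10 SE. Pilra, which binds sialylated O-linked glycoproteins, had 146, 171 and 126 CPM in KO libraries, against 108, 96.4 and 90.8 CPM in WT libraries. The groups did not overlap and the log2 fold change was 0.57 ± 0.13 SE. Over the 16 alternatives, Pilra's log2 fold change was 0.37 to 0.69 and Pirb's 0.53 to 0.67.

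Sirpa, whose ligand Cd47 marks cells not to be engulfed, had 1657, 1308 and 1504 CPM in KO libraries, against 1749, 1555 and 2095 CPM in WT libraries. The groups overlapped, and the log2 fold change was -0.30 ± 0.12 SE. Without WT replicate 3, the highest library, it was -0.16. Cd300lf, a receptor for phosphatidylserine and other lipids, had 42.7, 47.0 and 33.6 CPM in KO libraries, against 31.1, 31.7 and 25.9 CPM in WT libraries. The groups did not overlap, and the log2 fold change was 0.46 ± 0.14 SE, with 0.24 to 0.60 over the alternatives.

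**Figure D2:**
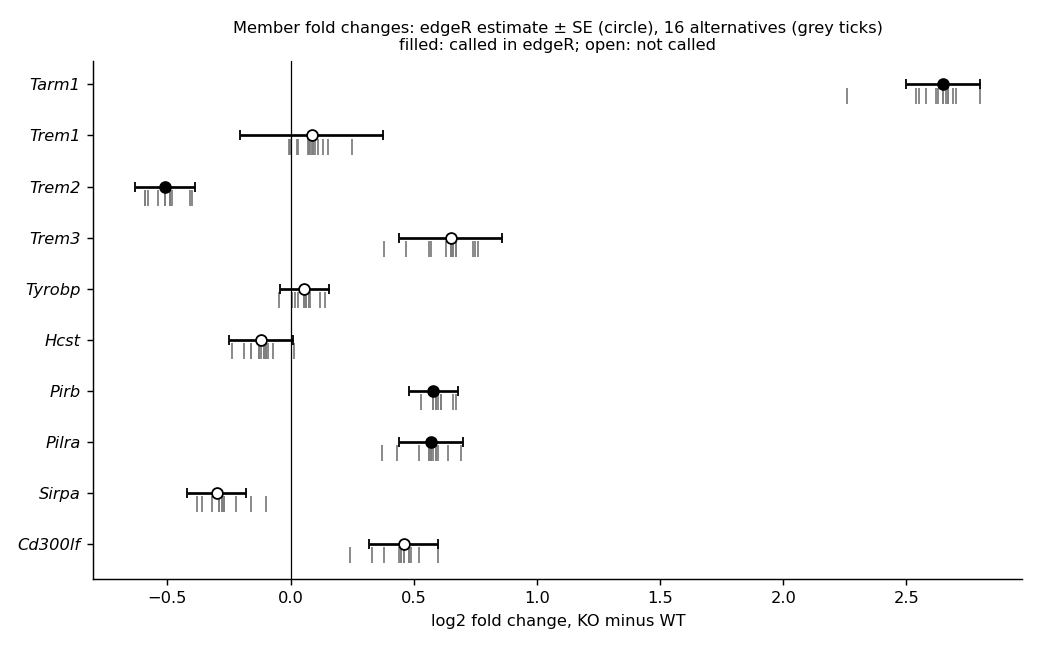
Log2 fold change, KO minus WT, of each member (horizontal axis) as the edgeR estimate ± SE, filled where called, with the 16 alternatives as grey ticks. Tarm1 lies at 2.65, away from the other members, which lie between -0.51 and 0.65.

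Per length, the adaptor Tyrobp stood far above every receptor. In KO libraries the order of mean FPKM was Tyrobp (1686), Pirb (360), Sirpa (235), Trem2 (63.5), Pilra (57.0), Hcst (42.8), Cd300lf (21.7), Tarm1 (15.2), Trem3 (5.78) and Trem1 (0.422). In WT libraries it was Tyrobp (1600), Sirpa (284), Pirb (236), Trem2 (89.3), Hcst (45.8), Pilra (38), Cd300lf (15.6), Trem3 (3.65), Tarm1 (2.39) and Trem1 (0.392). Neighbours whose libraries overlapped were Trem2 and Pilra in KO, and in WT Sirpa with Pirb and Trem3 with Tarm1. The order thus differed at 3 places. Pirb stood above Sirpa in each KO library, at 1.41, 1.69 and 1.51 times its FPKM, and below it in each WT library, at 0.855, 0.871 and 0.780 times. Tarm1 made up 19.5, 17.9 and 16.6% of the summed FPKM of the 4 activating members in KO, against 2.40, 2.63 and 2.43% in WT. Trem2 made up 73.3 to 76.1% in KO and 92.3 to 94.2% in WT. The 4 inhibitory members together had 711, 647 and 663 FPKM in KO libraries, against 571, 514 and 638 FPKM in WT libraries, so that their sums did not overlap, though narrowly.

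**Figure D3:**
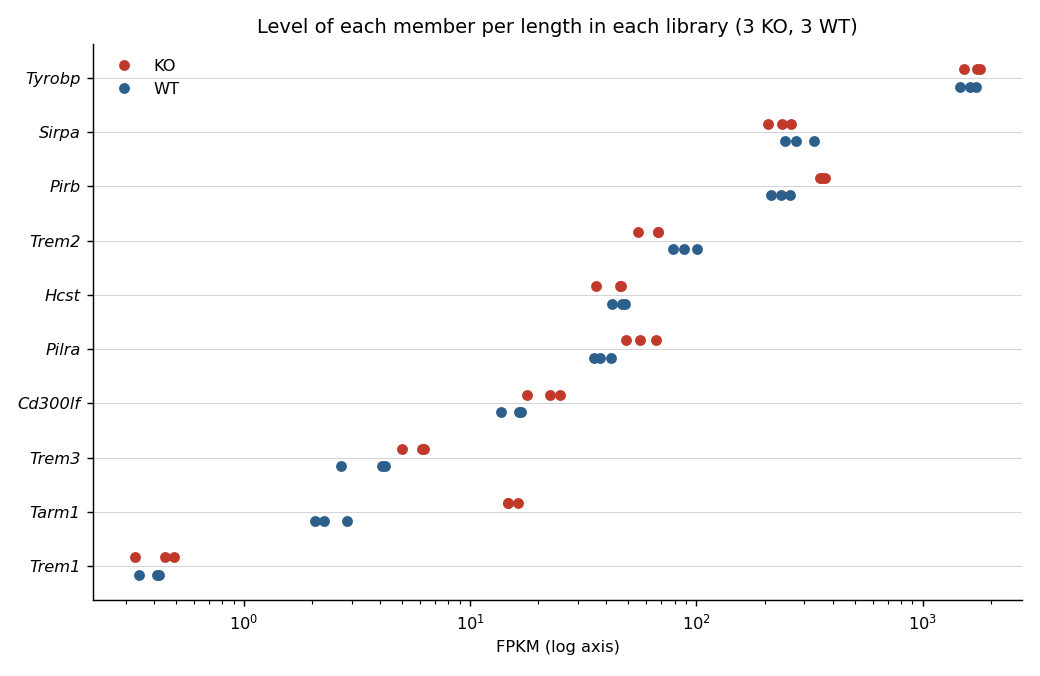
FPKM (log axis) of each member in the 3 KO and 3 WT libraries, ordered from top to bottom by the WT mean. Tyrobp lies at 1459 to 1796 FPKM in all 6 libraries, and Trem1 lies under 0.5 FPKM in all 6.

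Several members are neighbours in the genome (GENCODE positions on GRCm38, the assembly of the mm10 build that the submitters' processing notes name). Tarm1 (chromosome 7, 3486500 to 3502624, minus strand) and Pirb (3711409 to 3720391, minus strand) lie 209 kb apart. Trem1 (chromosome 17, 48232768 to 48246924), Trem3 (48247777 to 48258841) and Trem2 (48346401 to 48354147) lie in a row on the plus strand. Trem1 ends 852 bases before Trem3, and Trem3 ends 87.6 kb before Trem2. Tyrobp (chromosome 7, 30413760 to 30417585, plus strand) and Hcst (30417712 to 30419854, minus strand) run towards each other with 126 bases between them. Tyrobp lies 215 kb from Capns1. The libraries were strand-specific, but which strand setting the counting used is not stated in the labels. Whether reads from beyond the annotated end of Tyrobp were counted for Hcst was not tested. Pilra (chromosome 5, 137821952 to 137836281) and Cd300lf (chromosome 11, 115116214 to 115133992) overlap the opposite-strand genes Zcwpw1 and Rab37. Those genes had 2.60 ± 0.379 CPM in KO and 2.40 ± 0.393 CPM in WT for Zcwpw1, and 1.48 ± 0.33 and 1.16 ± 0.416 CPM in turn for Rab37 (SD, n = 3). Both lie far below the members they overlap. Sirpa lies on chromosome 2 at 129592835 to 129632228.

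RefSeq's table on GRCm38.p6 held promoters of 7 of the 10 members. Those of Tarm1, Pirb, Pilra, Cd300lf and Trem2 are shown, the members in it whose KO and WT libraries did not overlap. Each window holds 250 bases before and 50 after the gene's start. The windows are chr7:3502575-3502874 for Tarm1, chr7:3720333-3720632 for Pirb, chr5:137836229-137836528 for Pilra, chr11:115133943-115134242 for Cd300lf (all minus strand) and chr17:48346151-48346450 for Trem2 (plus strand). Each is printed 5′ to 3′ in the gene's own direction, with matches to the 5 searched motifs in capitals.
Tarm1: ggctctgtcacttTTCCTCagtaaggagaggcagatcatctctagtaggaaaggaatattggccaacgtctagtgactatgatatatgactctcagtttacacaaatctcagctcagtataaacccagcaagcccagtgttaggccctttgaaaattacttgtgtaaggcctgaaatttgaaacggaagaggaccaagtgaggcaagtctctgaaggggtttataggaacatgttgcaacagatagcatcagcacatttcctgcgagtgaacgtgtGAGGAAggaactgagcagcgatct
Pirb: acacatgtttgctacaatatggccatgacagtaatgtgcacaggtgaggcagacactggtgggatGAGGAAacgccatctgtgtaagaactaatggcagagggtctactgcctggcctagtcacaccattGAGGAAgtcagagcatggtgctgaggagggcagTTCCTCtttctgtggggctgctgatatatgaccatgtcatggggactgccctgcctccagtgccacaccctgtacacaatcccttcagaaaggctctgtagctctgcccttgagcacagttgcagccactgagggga
Pilra: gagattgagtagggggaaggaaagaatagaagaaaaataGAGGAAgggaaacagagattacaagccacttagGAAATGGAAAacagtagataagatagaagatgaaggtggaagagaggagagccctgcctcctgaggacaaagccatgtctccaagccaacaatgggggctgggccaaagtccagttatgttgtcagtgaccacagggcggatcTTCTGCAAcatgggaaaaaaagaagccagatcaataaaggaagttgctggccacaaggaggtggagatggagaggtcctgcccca
Cd300lf: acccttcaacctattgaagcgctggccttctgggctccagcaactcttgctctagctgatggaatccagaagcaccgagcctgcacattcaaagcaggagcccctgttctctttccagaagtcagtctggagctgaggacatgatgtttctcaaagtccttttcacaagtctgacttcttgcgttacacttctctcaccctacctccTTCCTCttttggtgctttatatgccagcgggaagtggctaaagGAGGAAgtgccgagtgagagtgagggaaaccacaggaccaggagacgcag
Trem2: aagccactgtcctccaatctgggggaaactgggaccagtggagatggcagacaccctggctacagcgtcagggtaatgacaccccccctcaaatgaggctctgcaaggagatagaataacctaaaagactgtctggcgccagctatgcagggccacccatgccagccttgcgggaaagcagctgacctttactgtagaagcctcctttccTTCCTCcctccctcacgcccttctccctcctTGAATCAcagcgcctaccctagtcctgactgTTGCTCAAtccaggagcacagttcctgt
Motifs were searched on both strands, and no matches overlapped one another. The ETS family core GAGGAA, which PU.1 of myeloid cells can bind, occurred in 28.3% of the 32851 promoters in the table. It was found in 6 of the 7 member promoters, with 2 matches each in Tarm1 and Cd300lf, 3 in Pirb and 1 each in Pilra and Trem2. The AP-1 motif TGANTCA (7.81% of promoters) was found in Trem2 alone among the 7. The C/EBP motif TTGCNNAA (10.8%) was found in Trem2 and Pilra, and the 10-base interferon response motif ISRE (3.44%) in Pilra. A 10-base NF-kB motif (0.411%) was found in none of the 7. A match says only that these letters are present in the window.

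Activating receptors of the paired type, partners of the inhibitory members among them, moved in both directions. Of all tested genes, 8.44% were called as higher in KO and 6.21% as lower. In a list of paired activating receptors, chosen with earlier results of these data known, 6 of 19 tested genes rose in KO and 5 fell. Its median log2 fold change was 0.23, and the difference in shares was not tested. Without KO replicate 1 or WT replicate 1, the whole table had 359 and 434 lower genes in turn, against 759 in all 6 libraries. The number lower in the list was 3 in each. Among them, Pira1 had 42.4, 27.1 and 47.2 CPM in KO libraries, against 113, 95.1 and 118 CPM in WT libraries (log2 fold change -1.51 ± 0.17 SE, adjusted p = 1.69e-04 in edgeR). Lilra6 had 26.7, 24.3 and 27.8 CPM in KO libraries, against 49.6, 50.9 and 50.6 CPM in WT libraries (-0.97 ± 0.099 SE, adjusted p = 8.43e-05 in edgeR). Pira genes encode the Fcer1g-coupled counterparts of Pirb. Pira2, which shares 96.5% of its 32-base sequence words with other genes, rose (0.81, adjusted p = 0.0195 in edgeR), a call lost without KO replicate 1, WT replicate 1 or WT replicate 2 (0.68, 0.64 and 0.79). Pirb shares 43.5% of its words and Lilra6 48.4%, and for Pira1 no value was found. How the authors' counting split reads among these copies is not known, so each of these values is uncertain. Pirb, Pira1, Pira2 and Lilra6 summed to 1100, 1020 and 1069 CPM in KO libraries and 814, 739 and 886 CPM in WT libraries. This sum does not depend on how the counted reads were split among the 4. The sum is mostly Pirb, and its groups did not overlap. Reads shared with genes outside the 4, or left uncounted because they match more than 1 copy, can still alter it. Pirb shares 23.3% of its words with Gm14548, and Pira2 shares 87.8% with Gm15922.

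For Sirpa the activating partners are the Sirpb1 genes, which couple to Tyrobp. Sirpb1c rose, with 11.1, 12.8 and 10.7 CPM in KO libraries and 4.35, 4.95 and 5.43 CPM in WT libraries (log2 fold change 1.21 ± 0.16 SE, adjusted p = 4.44e-04 in edgeR). Sirpb1b rose (1.81, adjusted p = 7.20e-04 in edgeR) and Sirpb1a fell (-0.65, adjusted p = 0.0497 in edgeR), that of Sirpb1a being a call lost under 11 of 16 alternatives (adjusted p = 0.0551 to 0.2), among them those without KO replicate 1, 2 or 3 or WT replicate 1 or 2. They share 53.4 to 71.4% of their words, mostly with each other, and the sum of the 3 was 20.3 ± 0.658 CPM in KO and 13.2 ± 1.30 CPM in WT (SD, n = 3). Sirpa itself shares 0.0196% of its words. Pilrb1, a Tyrobp-coupled partner of Pilra, rose (0.65, adjusted p = 0.0409 in edgeR), while Pilrb2 was not called (0.47, adjusted p = 0.066 in edgeR). The call of Pilrb1 was lost without KO replicate 1 or 2 or WT replicate 2 or 3 (0.72, 0.45, 0.62 and 0.52). It was also lost without KO replicate 2 and WT replicate 3 together (0.31). Under limma-trend on log2(FPKM + 1) and log2(FPKM + 0.1) it was lost too (0.64 and 0.67). Pilrb1 shares 49.1% and Pilra 28% of their words with other genes, and the sum of both Pilrb genes was 69.5 ± 12.4 CPM in KO and 46.5 ± 9.30 CPM in WT (SD, n = 3).

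Of the listed Cd300 genes, those called were all higher in KO. Cd300e, an activating member, had 24.3, 32.9 and 19.3 CPM in KO libraries, against 8.56, 4.47 and 3.62 CPM in WT libraries (log2 fold change 2.20 ± 0.29 SE, adjusted p = 5.36e-04 in edgeR). Cd300ld rose likewise, with 9.94, 9 and 11.7 CPM in KO libraries and 0.721, 3.05 and 2.25 CPM in WT libraries (2.31 ± 0.35 SE, adjusted p = 0.00115 in edgeR). The inhibitory Cd300a had 97.0 ± 12.7 CPM in KO and 54.2 ± 1.79 CPM in WT (SD, n = 3; 0.82, adjusted p = 8.84e-04 in edgeR). Cd300c2 (0.43, adjusted p = 0.0539 in edgeR) and Cd300lb (0.23, adjusted p = 0.355) were not called. In the same libraries, 5 monocyte markers summed to 1014 to 1119 CPM in KO and 764 to 999 CPM in WT. Ly6c2 rose (2.83, adjusted p = 4.82e-05 in edgeR), while Plac8 (-1.32, adjusted p = 3.85e-05) and Ccr2 (-0.87, adjusted p = 0.0324) fell, and without Ly6c2 the sum was 751, 736 and 689 CPM in KO and 797, 948 and 740 CPM in WT. Their part in the receptor values was not tested. Of the TREM-like genes, Treml2 fell (-0.47, adjusted p = 0.016 in edgeR), a call lost without KO replicate 1 or WT replicate 1 (-0.46 and -0.45), and Treml4 (0.64, adjusted p = 0.113) was not called. Clec5a, another Tyrobp-coupled receptor, was not called (0.16, adjusted p = 0.473).

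**Figure D4:**
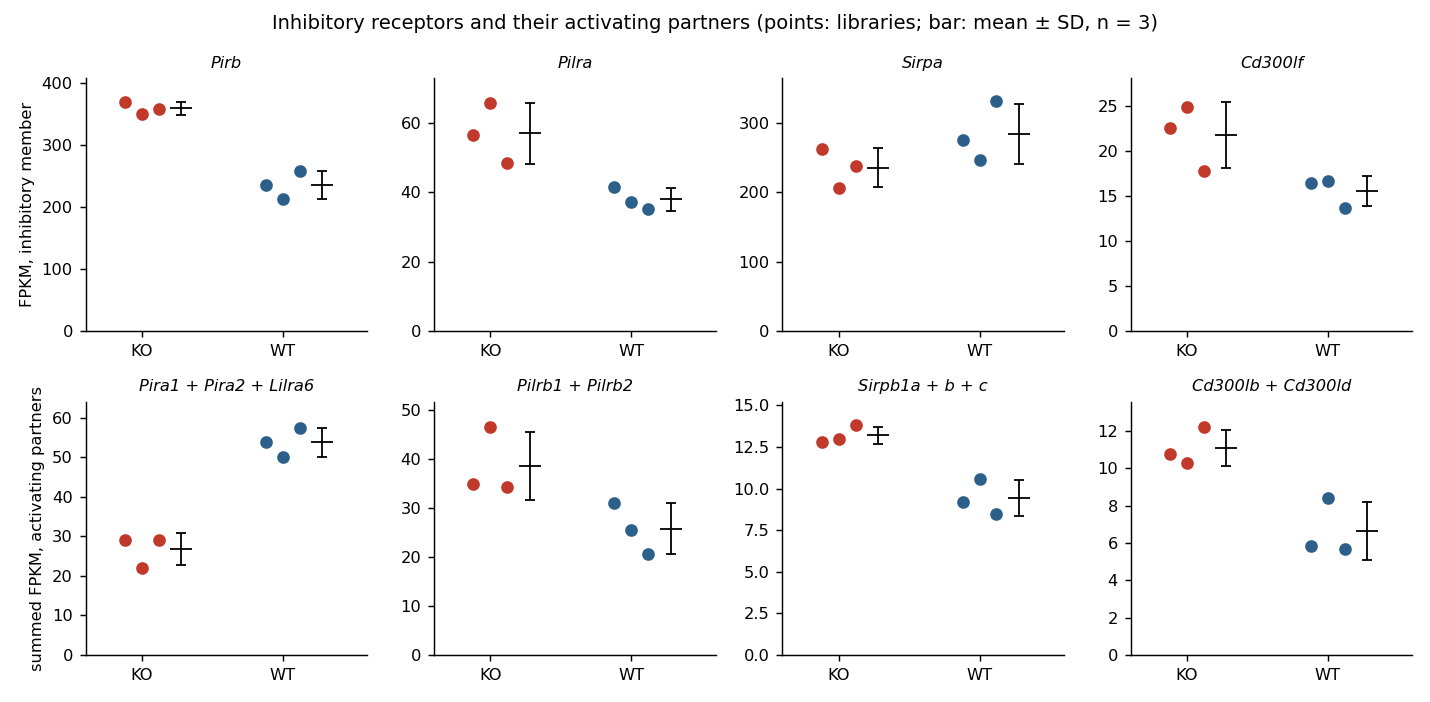
FPKM of the 4 inhibitory members (upper row) and summed FPKM of their activating partners (lower row) in each library, KO left and WT right, with the mean and SD of 3 libraries as bars and axes from 0. The Pira1, Pira2 and Lilra6 sum averages 26.7 FPKM in KO and 53.8 FPKM in WT, while the other 3 partner sums are higher in KO.

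Inhibitory receptors outside the members also moved in both directions, with a median log2 fold change of -0.12. Of 14 tested genes 3 were higher in KO and 3 lower, beside 8.44% and 6.21% of all tested genes. Fcgr2b, the inhibitory Fc receptor, had 388, 384 and 388 CPM in KO libraries, against 775, 905 and 714 CPM in WT libraries (log2 fold change -1.07 ± 0.10 SE, adjusted p = 5.29e-05 in edgeR). Cd200r1, the receptor for Cd200, also fell (-0.61, adjusted p = 0.00253 in edgeR). Lilrb4a fell (-0.58, adjusted p = 0.00401 in edgeR), as did its counterpart Lilr4b in the activating list (-0.79, adjusted p = 9.60e-04). These share 55.5 and 36.3% of their words, and their sum was 204 ± 7.47 CPM in KO and 312 ± 36.7 CPM in WT (SD, n = 3). Besides Cd300a, the sialic acid receptors Cd33 (0.67, adjusted p = 0.00504 in edgeR) and Siglece (0.52, adjusted p = 0.0294 in edgeR) rose. The call of Siglece was lost without KO replicate 1 or WT replicate 2 (0.51 and 0.39). The collagen receptor Lair1 was not called (0.011, adjusted p = 0.974).

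Few of the signalling genes behind these receptors were called, and their shares are read beside the 14.6% of all tested genes without a test of that difference. Among ITAM signalling genes, 0 of 33 tested genes rose and 3 fell by edgeR, with a median of -0.10. At an unadjusted p under 0.05, 1 was higher and 8 were lower, and DESeq2 called 1 and 6, limma-voom 0 and 2. The 14.6% belongs to edgeR's adjusted p alone and is not the share to set beside these counts. In the whole table DESeq2 called 2166 genes and limma-voom 1774, and no share of all genes at an unadjusted p is given here. Fcer1g had 1043 ± 119 CPM in KO and 1041 ± 118 CPM in WT (SD, n = 3), and Syk had 420 ± 17.3 and 431 ± 27.8 CPM in turn. The exchange factor Vav3 (log2 fold change -0.47, adjusted p = 0.0128 in edgeR), the membrane adaptor Lat2 (-0.54, adjusted p = 0.0144) and the kinase Tec (-0.42, adjusted p = 0.0482) fell. Without KO replicate 1, 0 genes of this list were called as lower. Without KO replicate 3, WT replicate 1 or WT replicate 2 there was 1, and without KO replicate 2 and WT replicate 3 together there were 9, with 2 higher. The whole table had 359 lower genes without KO replicate 1, against 759 in all 6 libraries. It had 402, 434 and 431 without KO replicate 3, WT replicate 1 and WT replicate 2 in turn. Without KO replicate 2 and WT replicate 3 together it had 1505 lower and 1681 higher. Lat2 shares 33.6% of its words with Rfc2. Tec lost its call in 13 of 16 alternatives (adjusted p = 0.052 to 0.196), whichever of the 6 libraries was left out. Of the inhibitory effectors, 1 of 18 tested genes rose and 0 fell by edgeR, with a median of -0.062. At an unadjusted p under 0.05, 3 were lower, while DESeq2 called 1 as lower and limma-voom 0, again without a share of all genes. The gene that rose was Dok2, a docking protein that restrains tyrosine kinase signalling, with 54.7, 58.3 and 56.4 CPM in KO libraries and 34.1, 39.4 and 37.2 CPM in WT libraries (0.59 ± 0.10 SE, adjusted p = 0.00287 in edgeR). The phosphatases Ptpn6 (-0.029, adjusted p = 0.908) and Ptpn11 (-0.078, adjusted p = 0.658) and the lipid phosphatase Inpp5d (0.064, adjusted p = 0.744) were not called.

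**Figure D5:**
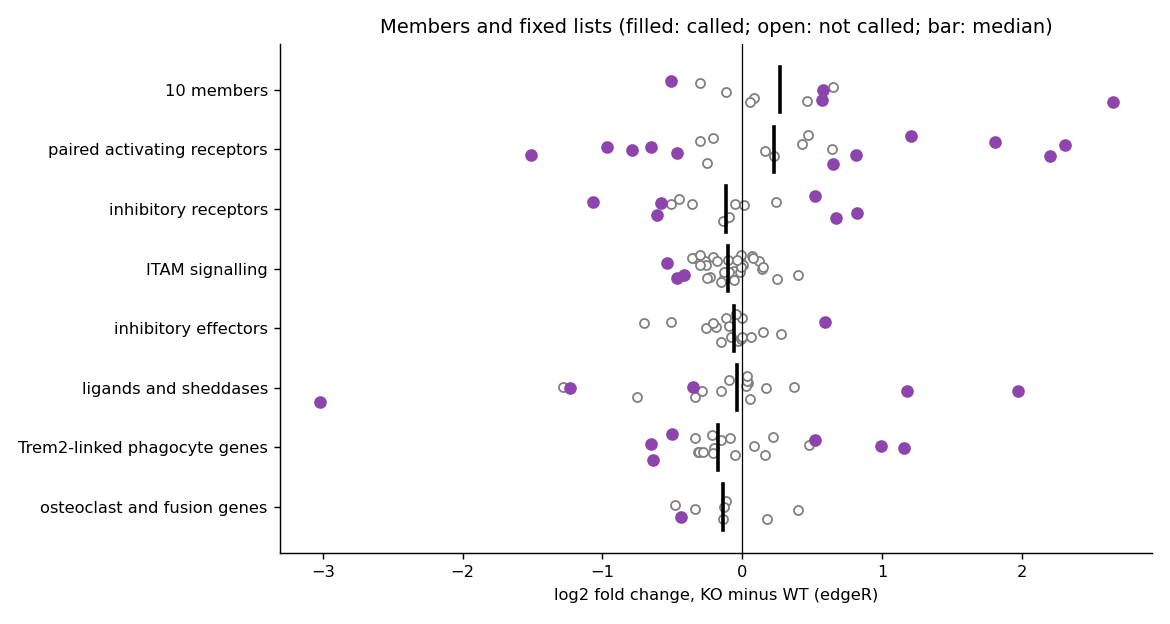
Log2 fold change, KO minus WT (horizontal axis), of the 10 members and of each tested gene in 7 lists, filled where called. Black bars are medians, and vertical scatter within a row has no meaning. Called receptors lie on both sides of 0, and 3 of 33 ITAM signalling genes and 1 of 18 inhibitory effectors were called, beside 14.6% of all tested genes.

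Ligands and sheddases of the members included 2 of 18 tested genes that rose and 3 that fell, with a median of -0.037. Of all tested genes, 8.44% were called as higher in KO and 6.21% as lower. Angptl2, described as a ligand of Pirb, had 39.3, 35.2 and 36.9 CPM in KO libraries, against 8.42, 11.1 and 8.46 CPM in WT libraries (log2 fold change 1.97 ± 0.13 SE, adjusted p = 4.11e-06 in edgeR). In the same libraries, fibroblast and stroma markers summed to 342 to 416 CPM in KO and 160 to 195 CPM in WT over 9 genes, and 5 of 8 tested ones rose, Col1a1 (0.91) and Dcn (1.78) among them. Their part in this result was not tested. Npdc1, described as a ligand of Pilra, rose (1.18, adjusted p = 0.00198 in edgeR). Apoe, a ligand of Trem2, fell (-1.23 ± 0.087 SE, adjusted p = 5.63e-06 in edgeR). A link between its level and that of Trem2 was not tested. Raet1d, a ligand of the Hcst-coupled receptor Klrk1, stood at 0.312, 0.269 and 0.245 CPM in KO libraries and 2.91, 2.62 and 1.20 CPM in WT libraries (-3.02 ± 0.43 SE, adjusted p = 7.81e-04 in edgeR). It shares 66.4% of its words with Raet1e, and both summed to 0.802 ± 0.43 CPM in KO and 3.53 ± 1.26 CPM in WT (SD, n = 3). The fifth call, Cd99l2 (-0.35, adjusted p = 0.0483 in edgeR), was lost under 11 of 16 alternatives (adjusted p = 0.0504 to 0.225), among them each that left out 1 library other than KO replicate 2. Cd47, the ligand of Sirpa, was not called (0.042, adjusted p = 0.823), nor was Klrk1 (-0.30, adjusted p = 0.363). The Trem2 sheddases Adam10 (0.031, adjusted p = 0.907) and Adam17 (-0.29, adjusted p = 0.0542) were not called. Col2a1 was below the count filter.

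Genes that accompany Trem2 in lipid-laden phagocytes did not move as one, with a median of -0.18. Of 20 tested genes 3 were higher in KO and 3 lower, beside 8.44% and 6.21% of all tested genes. The secreted matrix protein Spp1 (log2 fold change 1.16, adjusted p = 2.35e-04 in edgeR), the integrin Itgax (0.99, adjusted p = 0.00187) and the efferocytosis kinase Axl (0.52, adjusted p = 0.00354) rose. The sterol exporter Abcg1 (-0.65, adjusted p = 0.00315 in edgeR), Gpnmb (-0.64, adjusted p = 0.00422) and the galectin Lgals3 (-0.50, adjusted p = 0.0278) fell. The call of Lgals3 was lost without KO replicate 1 or 2 or WT replicate 2 (-0.45, -0.45 and -0.34). It was also lost under both limma-trend settings (-0.47 in each). Spp1 shares 14.1% and Itgax 10.5% of their words with other genes. Osteoclast and fusion genes form a programme in which Tyrobp and Trem2 are known to act. Of 8 tested ones 0 rose and 1 fell by edgeR, beside 8.44% and 6.21% of all tested genes. At an unadjusted p under 0.05, 1 was higher, and 0 were higher by DESeq2 or limma-voom, without a share of all genes. The lower gene was Tnfrsf11a, the receptor RANK (-0.44, adjusted p = 0.0268 in edgeR). Its call was lost without KO replicate 1 or 3 or WT replicate 1 or 3 (-0.45, -0.43, -0.38 and -0.39). It was also lost under limma-trend on log2(FPKM + 1) and log2(FPKM + 0.1) (-0.34 and -0.4). Dcstamp, needed for cell fusion, stood at 0.251 ± 0.316 CPM in KO and 0.338 ± 0.172 CPM in WT (SD, n = 3).

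Because Trem1, Trem3 and Tarm1 are also known in neutrophils, markers of neutrophils and their precursors were read in the same libraries. Their sum over 14 genes was 3092 to 3619 CPM in KO libraries and 2278 to 2792 CPM in WT libraries. Lcn2 carried this difference. The other 13 genes summed to 1731, 1347 and 1717 CPM in KO libraries and 1515, 1907 and 1595 CPM in WT libraries, which overlap. Of the 14 genes, 3 were called as higher in KO and 4 as lower, beside 8.44% and 6.21% of all tested genes. The higher ones were Lcn2 (log2 fold change 1.14, adjusted p = 0.00104 in edgeR), S100a8 (0.75, adjusted p = 0.00546) and S100a9 (0.49, adjusted p = 0.0455). The lower ones were the granule proteases Elane (-0.93, adjusted p = 0.00998) and Prtn3 (-0.93, adjusted p = 0.00326), the peroxidase Mpo (-0.99, adjusted p = 0.00981) and the receptor Csf3r (-0.50, adjusted p = 0.00471). The neutrophil surface marker Ly6g was low, at 1.06 ± 0.157 CPM in KO and 1.49 ± 0.898 CPM in WT (SD, n = 3). The part of such cells in the levels of the members was not tested. Natural killer cell markers summed to at most 0.126 CPM in any library over the 3 genes of 5 in the table.

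The 5 protein-coding genes whose log2 CPM followed Tarm1 most closely over the 6 libraries, among 8960 with a mean of at least 5 CPM, were Ctps, Bst1, Alad, Serpinh1 and Rps2. Pearson's r with Tarm1 was 0.9994, 0.9994, 0.9991, 0.9991 and 0.997 in turn. The 6 points fall into the 2 genotypes and so mostly repeat the difference between them. Bst1, an ectoenzyme of the CD38 family, had 194 ± 8.19 CPM in KO and 77.8 ± 6.93 CPM in WT (SD, n = 3). Serpinh1, the collagen chaperone, had 51.8 ± 3.83 CPM in KO and 13.7 ± 1.98 CPM in WT (SD, n = 3). Rps2 shares 48.5% of its words with other genes, so its value is uncertain.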

How the data were processed

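RNA was measured in 3 KO and 3 WT libraries, grouped and numbered by the sample titles. The authors deposited raw read counts per gene and FPKM values. Tools named in the submitters' processing notes are HISAT2, fastp and HTSeq, with the build mm10. The sources used here give no versions, annotation or strand setting. The deposited FPKM equalled the count over one length per gene and over the column total, to 1% or better in 99.99% of values with 10 or more counts, so CPM and FPKM share this total. Library totals of 32631163 to 40913819 put the floor of 3 counts (what a count of 0 allows) at 0.0733 to 0.0919 CPM, for counting error only.

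Differences were tested on the deposited counts by edgeR's quasi-likelihood F test (edgeR 4.0.16, R 4.3.3) after filterByExpr and TMM scaling (KO minus WT, Benjamini-Hochberg adjustment over 12219 genes, threshold 0.05). The SE is the log2 fold change over the square root of F. Nothing says that samples were separate cultures or animals, so p-values reflect only their spread, which could be technical. Alternatives were other scalings and filters, DESeq2 1.42.0, limma-voom and limma-trend on log2(FPKM + 1) and log2(FPKM + 0.1) (limma 3.58.1), a replicate block and leaving out libraries. The procedure was tested on simulated counts. Members and lists were chosen with earlier results of these data known. Of 148 list entries, 6 were not analysed here, and others fell below the count filter. The lists held 129 distinct tested genes. Named genes are the members, Capns1, up to 4 called genes per list by smallest adjusted p and the 5 tested protein-coding genes most like Tarm1 (highest Pearson r of log2 CPM with a pseudocount of 0.5, leaving out members and Gm-numbered or Rik symbols). Other list and marker genes were named after their values were seen. Words of 32 bases were compared between GENCODE M21 transcripts of different genes. Protein sequences were not used here.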

Additional observations from a re-analysis of the deposited data

How the results depend on the processing

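Over the 16 alternatives, the direction of Tarm1, Trem2, Trem3, Pirb, Pilra, Sirpa and Cd300lf was the same in each. That of Trem1 (-0.0055 to 0.25), Tyrobp (-0.048 to 0.14) and Hcst (-0.24 to 0.013), not called in any, crossed 0. The number of members called was 3 to 6, with 6 under DESeq2, no low-count filter and the replicate block, which added Trem3 and Cd300lf. Genes called in the whole table numbered 1119 to 1741 with 1 library left out (1119 without KO replicate 1, 1149 without KO replicate 3, 1138 without WT replicate 1), and those lower in KO 359 to 742 (359, 402 and 434 in turn, and 431 without WT replicate 2). Without KO replicate 2 and WT replicate 3 together there were 3186 genes, 1681 higher and 1505 lower, and 54 of the listed pathway genes against 33 in all 6 libraries. The cause was not tested.

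With the replicate number as a block, 1164 genes were called as lower in KO, against 759 without it. Same-numbered KO and WT libraries deviated from their group means with correlations of -0.098, 0.23 and 0.18, so the numbers were not taken as pairs, and KO replicate 1 correlated best with WT replicate 3 (0.258). The block is no sign of a stronger or weaker effect. Of 624 values of the other 39 named genes under the alternatives, 559 stayed on their side of the threshold, 65 lost their call and 0 changed direction. Trem1 had the fewest counts of the members, 39 to 62 per library, and the widest SE.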
